A study of Porolithon cf. onkodes and Sporolithon durum with 38 samples.

Results

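The 100 transcripts described here were chosen by their counts in Porolithon cf. onkodes (P. onkodes). None of them had a count in any of the 5 libraries of the combined treatment, T + pH. All transcripts of that kind were ranked by the number of the 12 libraries of the control, T and pH with a count, then by their total count over those libraries, then by name. The first 100 were taken, after transcripts that the study lists by name elsewhere had been left out, of which 1 (DN76337_c0_g1_i4) fell within that range. The count table holds 118126 transcripts, of which 44774 had a count in any library and 8954 had a count in the other treatments and none in T + pH. The absence from T + pH, the number of libraries and the total count are therefore what chose these transcripts and are given as a description, without a test.

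P. onkodes is a crustose coralline alga, a calcifying red alga that cements reef frameworks and on which coral larvae settle. Fragments were kept for 3 months in the control (27.2 °C, pH 8.0, 450 µatm pCO2), in T (29.5 °C, pH 8.0, 450 µatm), in pH (27.2 °C, pH 7.7, 1000 µatm) or in T + pH (29.5 °C, pH 7.7, 1000 µatm). RNA came from the pigmented top layer of each fragment, a mixture of cells in which fewer cells of a type and less RNA per cell cannot be told apart. Each library is 1 fragment, labelled a biological replicate, and the libraries used were PO4, PO10, PO16 and PO17 of the control, PO1, PO2, PO8 and PO18 of T, PO3, PO5, PO11 and PO14 of pH, and PO6, PO7, PO12, PO15 and PO19 of T + pH.

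The transcripts were measured with CEL-Seq2, which primes on the poly(A) tail and tags the 3′ end of each RNA with a molecular identifier, so that repeated reads of 1 molecule can be counted once. No genome was used. A transcript is a sequence of a Trinity de novo assembly, and its name gives the assembly component (DN72910_c0), the Trinity gene within it (g1) and the isoform (i3), which need not be a splice form of a real gene. Near-identical isoforms can share reads, so that their counts are not independent. The 100 transcripts came from 74 Trinity genes, 55 of which gave 1 transcript, and from 71 components. They made 92 different count profiles over the 12 libraries, and 14 transcripts could not be told from another of the 100 by their counts. No protein name for any of them was found in the sources used here, and no role is given to them below.

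The library totals set how low a level could be seen. They ran from 78142 counts in PO19 to 3012292 in PO15, both of T + pH, and the 5 libraries of T + pH together held 5853546 counts against 3625872 in the control, 4050470 in T and 1950838 in pH. A count of 0 over all 5 libraries allows a level of up to 0.464 CPM (counts per 1000000 of the library total, scaled by TMM), taking 3 counts as the limit and covering counting error only. The same limit was 0.865 CPM in PO15 alone and 55.7 CPM in PO19 alone, so that the absence rested on the deep libraries and a level was not detectable below these limits. Of 5 chloroplast transcripts used as markers of pigmented tissue, phosphoribulokinase (Calvin cycle) and a PsbP-like protein (photosystem II) had counts in 17 of 17 libraries. The photosystem II protein CP47 had counts in 15 libraries, magnesium chelatase ChlD (chlorophyll synthesis) in 14 and the cytochrome b6-f iron-sulfur subunit in 10. The mean level of phosphoribulokinase was 47.4 CPM in the control and 315 CPM in T + pH, and that of the other markers apart from CP47 was likewise higher in T + pH, with or without PO19, the shallowest library. CP47 stood at 11.7 CPM in the control and 17.5 CPM in T + pH, but at 3.30 CPM in T + pH without PO19, where 4 counts gave 74.3 CPM. These markers came from transcripts that the study lists by name, and it reports phosphoribulokinase and cytochrome b6f as upregulated in T + pH. A higher level there can thus come from their source and does not measure tissue content. Among transcripts taken as present in every cell, beta-tubulin was at 0.640 CPM in the control and 0.635 CPM in T + pH. Beta-tubulin had only 19 counts in all, in 5 of 17 libraries. Its levels lay near the limit of detection, so their likeness does not make it a stable reference. Heme oxygenase was at 20.4 CPM in the control, 75.5 CPM in T + pH and 10.8 CPM in T + pH without PO19. The part of these levels in the absences was not tested.

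Transcripts of this kind were found for every treatment. Among 20647 transcripts with a count in at least 5 of the 12 libraries outside T + pH, 165 (0.799%) had none in T + pH, and a further 256 had 1 count and 338 had 2. The same search, for transcripts found in at least 5 of the 13 libraries outside a treatment, gave 447 of 22665 (1.97%) absent from the control, 517 of 22312 (2.32%) absent from T and 1868 of 23584 (7.92%) absent from pH. The share was largest in pH, with the lowest total count, and smallest in T + pH, with the highest total and 1 library more, but it was larger in T than in the control although T had the larger total. Most of the 100 were found in few libraries at low counts. A single transcript had counts in 10 of the 12 libraries, 1 in 8, 7 in 7, 38 in 6 and 53 in 5. Total counts ran from 6 to 191 with a median of 16, and 10 transcripts had under 10. At the lower end, DN75895_c0_g2_i5 (total 11) and DN116772_c0_g1_i1 (total 10) were the last taken, and DN56319_c0_g1_i1, also in 5 libraries with a total of 10, was the first left out.

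Outside T + pH, the 100 transcripts remained in every treatment, but not in every library. Counts were present in the control, T and pH for 65 transcripts. A further 18 had counts in the control and T and none in pH, 16 had counts in the control and pH and none in T, and DN68691_c0_g1_i1 had counts in T and pH and none in the control. The summed level was 319 ± 190 CPM (SD, n = 4) in the control, 150 ± 87.2 CPM (n = 4) in T and 649 ± 525 CPM (n = 4) in pH. By library it was 283 CPM in PO4, 521 in PO10, 399 in PO16 and 74.7 in PO17 of the control, and 89.4 CPM in PO1, 103 in PO2, 128 in PO8 and 278 in PO18 of T. In pH it was 740 CPM in PO3, 232 in PO5, 267 in PO11 and 1356 in PO14. The 3 treatments overlapped. The highest levels were those of PO14 and PO3 of pH, while PO5 and PO11 of pH lay below 3 of the 4 control libraries and above PO17. The mean level was highest in the control for 43 transcripts, in pH for 38 and in T for 19. Without PO10 these counts were 41, 40 and 19.

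**Figure D1:**
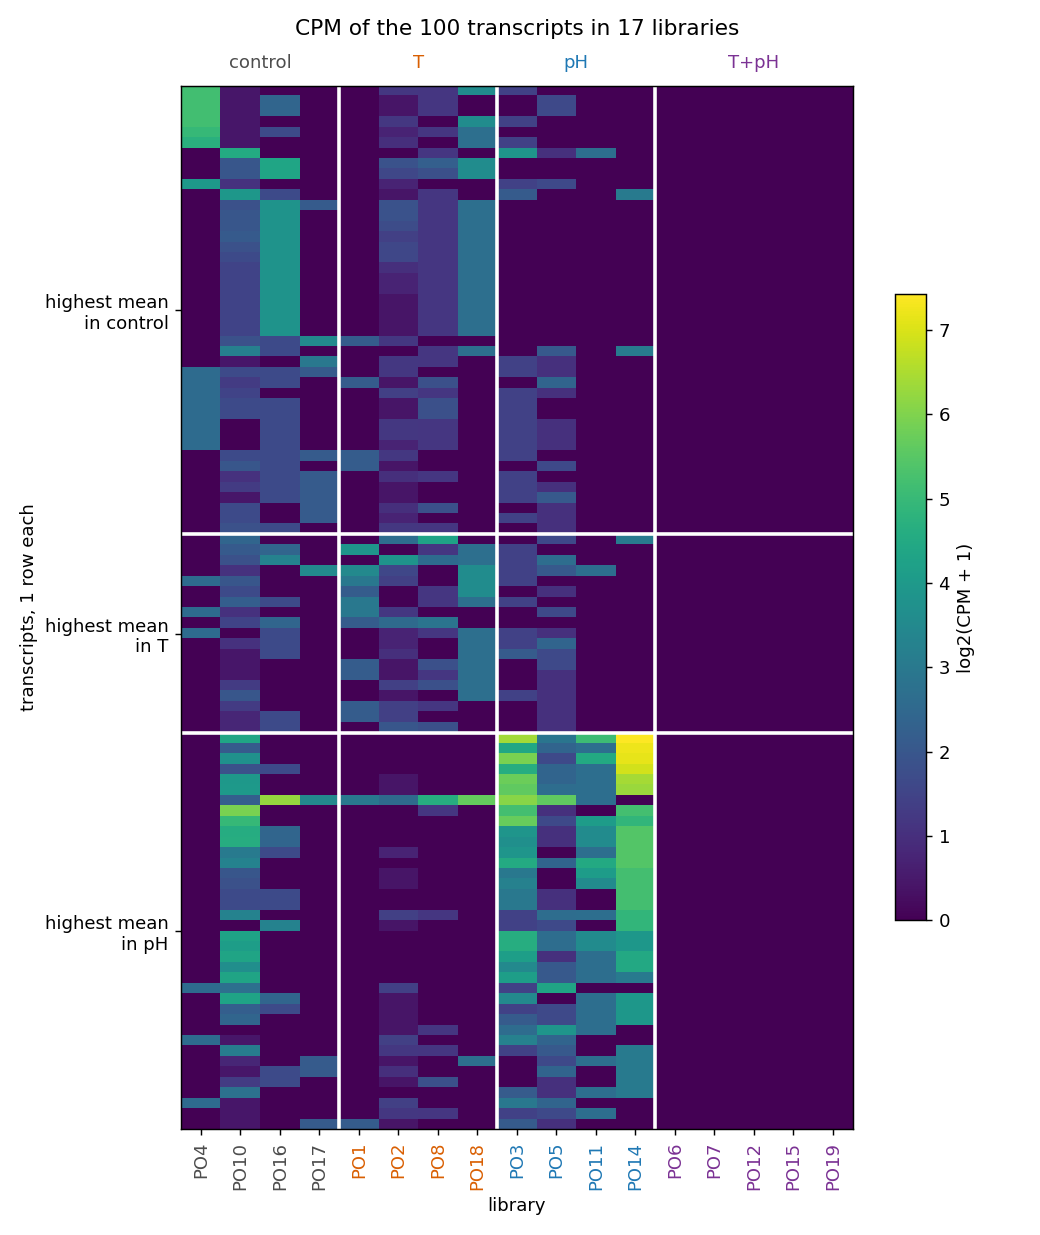
Each row is 1 of the 100 transcripts and each column 1 of the 17 libraries, coloured by log2(CPM + 1) and grouped by treatment; rows are grouped by the treatment with the highest mean CPM (43 in the control, 19 in T, 38 in pH). The 5 columns of T + pH are empty by the choice of the transcripts, a band of rows in the lower part is filled in PO10 and all 4 pH libraries, and a band in the upper part is filled in PO10, PO16, PO2, PO8 and PO18 and empty in pH.

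One control library held many of the counts, in part through the choice of the 100. PO10 had counts for 94 of the 100 transcripts and 46.4% of all their counts, against 27.3% of the total count of the 12 libraries. The rule ranks by libraries with a count and by raw total, and PO10 had counts for 32464 transcripts, the most of any library. How many of the 20647 transcripts found in at least 5 of the 12 libraries had a count in PO10 was not counted. The 94 is thus a description and not a trait of the 100. PO2 of T, with a larger total (2874863 against 2629626), had counts for 78 of them and 10.2% of their counts. For 28 transcripts PO10 was the only control library with a count, and without it 71 of the 100 had a control count in place of 99, and 49 were still found in at least 5 libraries. The summed control level without PO10 was 252 ± 164 CPM (SD, n = 3). The highest count of a transcript lay in PO10 for 53 transcripts, in PO2 for 19, in PO16 for 10, in PO4 for 7, in PO5 for 6, in PO14 and PO3 for 2 each and in PO8 for 1. Ties went to the first library in the order of the control, T and pH, so the number for PO10 includes transcripts with an equal count elsewhere. Over 50% of the counts lay in a single library for 28 transcripts, and that library was PO10 for 24 of them. When the libraries above the median total were thinned to it (532955 counts), PO10 still had counts for 68 of the 100. PO16 of the control, whose total is that median, had counts for 55. The numbers were 38 in PO2 and 38 in PO8 of T, and 55 in PO3 and 51 in PO5 of pH.

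**Figure D2:**
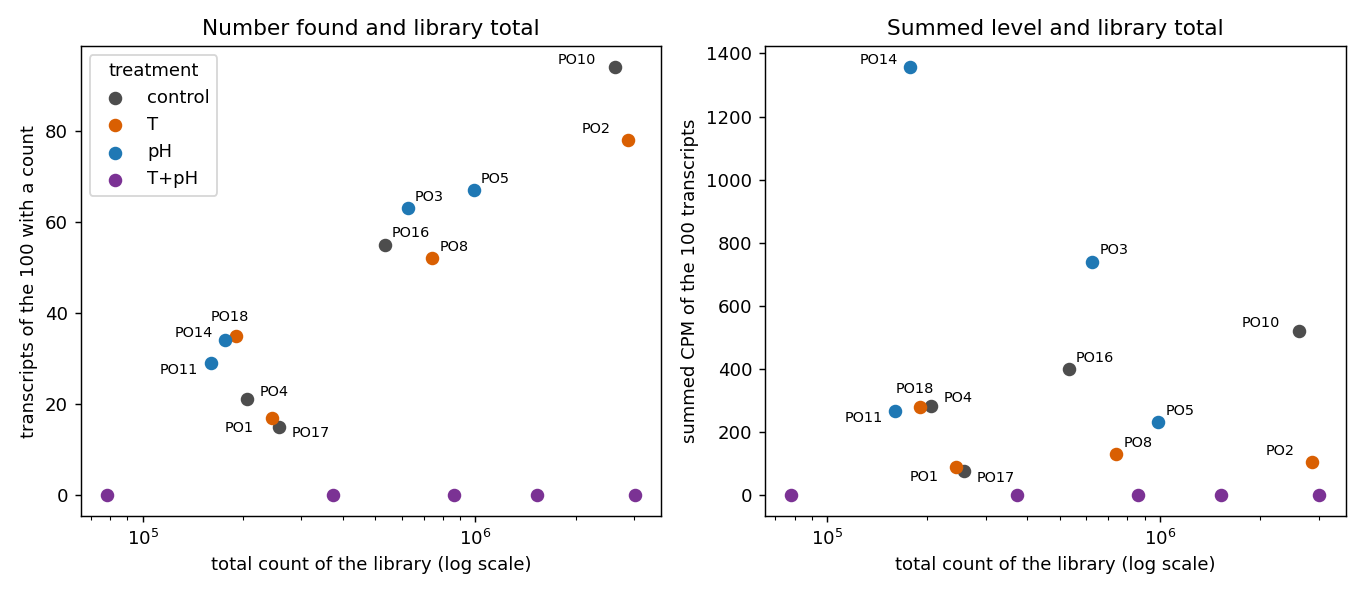
Each point is 1 library, with its total count on a log axis and, on the left, how many of the 100 transcripts had a count, and on the right, their summed CPM; colours mark the treatment. Most transcripts were found in the largest libraries of the control and T, PO10 (94) and PO2 (78), and fewest in PO17 (15), while the summed CPM was highest in PO14 (1356) and PO3 (740) of pH.

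The transcript found in the most libraries was DN61233_c0_g1_i1. Its counts were 0 in PO4, 10 in PO10, 34 in PO16 and 3 in PO17 of the control, 2 in PO1, 15 in PO2, 19 in PO8 and 9 in PO18 of T, and 40 in PO3, 45 in PO5, 1 in PO11 and 0 in PO14 of pH. It was present in each treatment and varied as much within as between them, at 22.1 ± 35.2 CPM in the control, 21.5 ± 20.9 CPM in T and 30.3 ± 33.0 CPM in pH (SD, n = 4 each). Set against 3 counts over the 5 libraries of T + pH, its pooled level was at least 27.5-fold higher in the control, at least 22.6-fold higher in T and at least 99.8-fold higher in pH, a bound that takes the counts outside T + pH as exact. It was the only transcript of the 100 with such a bound above 20 in all 3 treatments.

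Over the whole set these bounds were smaller. A transcript with more than 3 counts in the control was found in 82 cases, with a bound of at least 2.34-fold to 95.5-fold and a median of 6.45. The corresponding bounds were 2.01-fold to 22.6-fold with a median of 2.51 for 50 transcripts in T, and 4.64-fold to 99.8-fold with a median of 13.3 for 44 transcripts in pH. The highest bound in the control belonged to DN68368_c0_g1_i2, which also had the highest total. Its counts were 163 in PO10 and 0 in PO4, PO16 and PO17 of the control, 1 in PO8 and 0 in PO1, PO2 and PO18 of T, and 21 in PO3, 1 in PO5, 0 in PO11 and 5 in PO14 of pH. PO10 held 85.3% of them, so that the control level of 14.9 ± 29.9 CPM (n = 4) rested on 1 library.

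DN101447_c0_g1_i1 and DN76477_c0_g4_i1 followed in the ranking. DN101447_c0_g1_i1 had 3 counts in PO10 and 3 in PO17 of the control, 3 in PO1, 6 in PO2 and 2 in PO18 of T, 1 in PO3, 3 in PO5 and 1 in PO11 of pH, and 0 in the other 4 libraries outside T + pH. DN76477_c0_g4_i1 had 40 of its 62 counts in PO2 of T, with 1 in PO18 and 4 in PO8 of T, 7 in PO10 and 4 in PO16 of the control, and 1 in PO3 and 5 in PO5 of pH. Both had their highest mean in T, at 5.86 ± 5.69 CPM for DN101447_c0_g1_i1 and 5.95 ± 5.45 CPM for DN76477_c0_g4_i1 (SD, n = 4), and their T libraries overlapped those of the control and pH. DN65258_c0_g1_i2 (14 counts), DN16481_c0_g1_i1 (9 counts) and DN77063_c3_g1_i1 (8 counts) had 1 to 4 counts in each of 7 libraries, spread over all 3 treatments. DN71370_c1_g1_i10 was the only transcript with a count in all 4 control libraries, with 1 in PO4, 6 in PO10, 1 in PO16 and 1 in PO17, a level of 3.21 ± 1.35 CPM. It had 4 counts in PO2 of T and 1 each in PO3 and PO5 of pH.

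The remaining 5 of the first 12 shared a pattern of presence in PO10 and in pH. DN72910_c0_g1_i1 had 40 counts in PO10 and none in the other control libraries, 1 count in PO2 and none in the other T libraries, and 31 counts in PO3, 4 in PO5, 1 in PO11 and 12 in PO14 of pH. The isoform DN72910_c0_g1_i3 had nearly the same counts in those libraries (41, 1, 28, 5, 1 and 11), and forms this alike can share reads. DN71899_c0_g1_i1 had 63 counts in PO10, 2 in PO16, none in T, and 8 in PO3, 1 in PO5, 2 in PO11 and 6 in PO14 of pH. DN57424_c1_g1_i1 had 24 counts in PO10, 5 in PO2 and 1 in PO8 of T, and 1 in PO3, 5 in PO5, 1 in PO11 and 4 in PO14 of pH. DN75241_c0_g1_i3 had 10 counts in PO10, 1 in PO16, 1 in PO2 of T, and 1 in PO3, 2 in PO5, 1 in PO11 and 2 in PO14 of pH. All 5 had a count in every pH library.

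In all, 19 of the 100 transcripts, from 14 Trinity genes, had a count in all 4 pH libraries, against 3 in all 4 T libraries and 1 in all 4 control libraries. Each of the 19 had a count in PO10, 15 had none in the other 3 control libraries, and 14 had none in T. Their summed counts in pH were 287 in PO3, 60 in PO5, 36 in PO11 and 147 in PO14. In the control they were 711 in PO10, 6 in PO16 and 0 in PO4 and PO17, and in T they were 9 in PO2, 1 in PO8 and 0 in PO1 and PO18. The ranking ended among transcripts found in 5 libraries. One with a count in all 4 pH libraries and none in T therefore entered only with a control count. The presence of the 19 in PO10, the deepest control library, thus comes in part from the choice, and no likeness of PO10 to pH is read from it. In CPM the sum was 448 ± 435 CPM in pH, 68.5 ± 128 CPM in the control and 1.06 ± 1.41 CPM in T (SD, n = 4 each), and without PO10 the control mean was 4.39 CPM. The 19 gave 36 counts in PO11 with a total of 159937 and 9 counts in PO2 with a total of 2874863, whereas within the control and within T most of their counts lay in the deepest library (PO10 and PO2). The part of depth in this pattern was not tested. These 19 were also the transcripts of the 100 whose 4 pH libraries all lay above all 4 T libraries in CPM, which was so for 0.912% of the 29276 transcripts tested. For the 14 with no count in T this follows from a count in every pH library, so it is a description and not a further result.

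The same pattern was found outside the set. Over the whole table, 34 transcripts had a count in every pH library and none in T, and all 34 had a count in PO10. PO10 had counts for 32464 transcripts, the most of any library. How many of all 9001 transcripts with a count in every pH library were found in PO10 was not counted, so nothing is read from the 34. The 14 of the 34 that are among the 100 had no count in T + pH by choice. The other 20 had 83 counts in T + pH, of which 55 were in PO6, 21 in PO15, 3 in PO7, 3 in PO12 and 1 in PO19. The reverse pattern, a count in every T library and none in pH, was seen for 23 transcripts. Of the 100, 3 had a count in every T library: DN61233_c0_g1_i1, DN76601_c0_g1_i5 and DN76356_c4_g2_i7. DN76601_c0_g1_i5 had 1 count each in PO1, PO2 and PO18 and 2 in PO8 of T, with 1 in PO10 of the control and 2 in PO5 of pH. DN76356_c4_g2_i7 had a single count in each of 6 libraries, PO1, PO2, PO8 and PO18 of T, PO10 of the control and PO5 of pH, and so the most even spread of the 100, with 16.7% of its counts in any 1 library. The next most even were DN16481_c0_g1_i1 (22.2%) and, at 25.0%, DN77063_c3_g1_i1 and DN76601_c0_g1_i5.

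**Figure D3:**
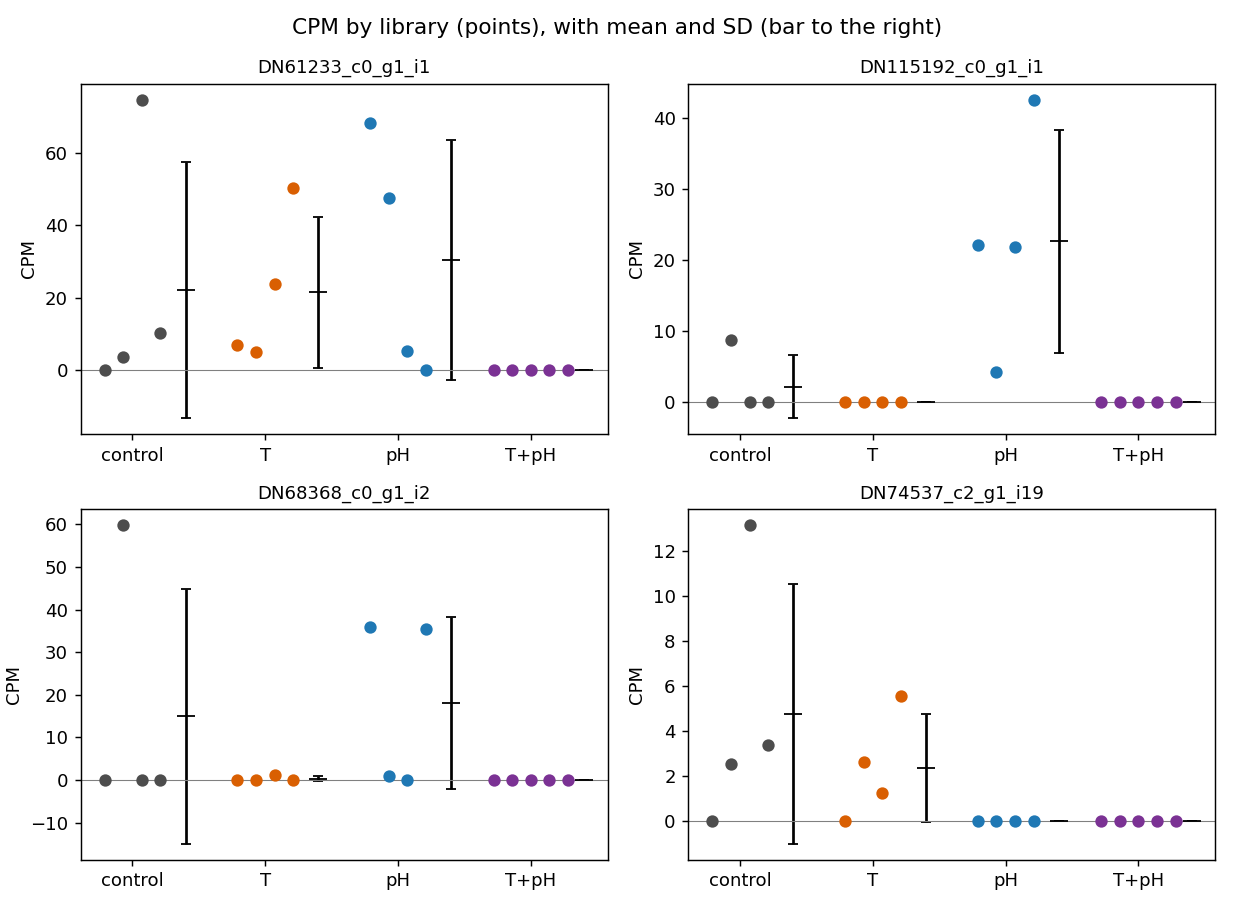
Points are the CPM of single libraries by treatment for DN61233_c0_g1_i1, DN115192_c0_g1_i1, DN68368_c0_g1_i2 and DN74537_c2_g1_i19, with the mean and SD as a bar to the right of each group (n = 4, and n = 5 in T + pH). DN115192_c0_g1_i1 is at 0 in all T libraries and above 0 in all pH libraries, DN74537_c2_g1_i19 is at 0 in all pH libraries, and PO10 alone is above 0 in the control for DN68368_c0_g1_i2.

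A second group was absent from pH. Of the 18 transcripts with counts in the control and T and none in pH, from 7 Trinity genes, 16 had counts in the same 5 libraries, PO10 and PO16 of the control and PO2, PO8 and PO18 of T. Those 16 came from only 5 Trinity genes, 5 of them from DN74537_c2_g1, 5 from DN75606_c0_g2, 3 from DN75606_c0_g1, 2 from DN74772_c1_g1 and 1 from DN73111_c0_g1, and within a gene their counts were similar. Their counts were 1 to 9 in PO10, 1 to 9 in PO16, 1 to 8 in PO2, 1 to 3 in PO8 and 1 to 2 in PO18. DN74537_c2_g1_i19, the first of them in the ranking, had 7 counts in PO10, 6 in PO16 and 1 in PO17 of the control, and 8 in PO2, 1 in PO8 and 1 in PO18 of T, or 4.78 ± 5.77 CPM in the control and 2.37 ± 2.39 CPM in T (SD, n = 4). DN74772_c1_g1_i1 had 8 counts in PO10, 9 in PO16, 6 in PO2, 2 in PO8 and 2 in PO18. Set against 3 counts over the 4 pH libraries, the pooled control level of DN74772_c1_g1_i1 was at least 2.86-fold higher than in pH and that of DN74537_c2_g1_i19 at least 2.36-fold higher. The bound from T was 1.44-fold for each of them. For DN73111_c0_g1_i7 the bounds were 1.35-fold from the control and 0.577-fold from T. A bound below 1 does not place pH below T. The lower total of pH thus left small bounds, since 3 counts were worth 1.62 CPM there.

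The contrasts among the control, T and pH were not used to choose the 100, but the counts of the same libraries were. The raw total in the rule gives weight to the deepest libraries, and the absence from T + pH enters the shared estimate of the spread. The numbers of the 100 given below are thus not independent of the rule. The contrasts were tested over the whole table with edgeR's quasi-likelihood test. A transcript was called where its false discovery rate (FDR, Benjamini-Hochberg adjusted p) was below 0.05 and its log2 fold change was larger than 0.3 in either direction. All 100 passed the filter of a total of at least 5 counts, as the rule had made sure. Of the 100, 0 were called in T against the control and 0 in pH against the control, as were 0.0% and 0.0% of the 29276 transcripts tested. In pH against T, 1 was called, where 0.0171% of all transcripts were. At an unadjusted p under 0.05, 26 of the 100 differed between T and the control, all lower in T, beside 6.92% of all transcripts. Between pH and the control 31 did, 13 higher and 18 lower in pH, beside 5.6%, and between pH and T 41 did, 32 higher and 9 lower in pH, beside 8.71%. DESeq2 called 0 of the 100 in T against the control and 0 in pH against the control, with 2 and 3 at an unadjusted p under 0.05.

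The unadjusted differences followed the presence patterns described above. Of the 26 transcripts lower in T than in the control, 13 had control counts in PO10 alone (28 of the 100 had), and 21 were also among the 32 higher in pH than in T. Without PO10 the number was 13, 12 of them lower in T. Of the 32 higher in pH than in T, from 25 Trinity genes, 16 had none in T. A count in PO10 was present for 30 of the 32, near the share in the whole set (94 of the 100). The 9 lower in pH than in T came from 4 Trinity genes, and all 9 had no count in pH, as had all 18 that were lower in pH than in the control. The median log2 fold change of the 100 was −1.51 in T against the control (−0.01 over all transcripts tested), −0.29 in pH against the control (−0.06) and 0.61 in pH against T (−0.05). With each transcript at 0 in a treatment set at its bound of 3 counts, and those with 3 counts or fewer left out, the medians of the 100 were −1.45, −0.23 and 0.81.

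The transcript called between pH and T was DN115192_c0_g1_i1. Its counts were 13 in PO3, 4 in PO5, 4 in PO11 and 6 in PO14 of pH, 0 in all 4 T libraries, and 24 in PO10 and 0 in the other 3 control libraries. All 4 pH libraries lay above all 4 T libraries. Its level was 22.7 ± 15.7 CPM in pH and 2.20 ± 4.40 CPM in the control (SD, n = 4), and the pooled level in pH was at least 20.8-fold higher than in T. The fitted log2 fold change was 7.28 (SE 1.39, edgeR FDR 0.0336), a value that depends on the prior count since T was at 0. DESeq2 gave this transcript an FDR of 0.111 and called DN73163_c0_g1_i2 in its place (FDR 0.0328), and without PO2 of T the edgeR FDR of DN115192_c0_g1_i1 was 0.4002. DN73163_c0_g1_i2 had 14 counts in PO3, 4 in PO5, 1 in PO11 and 17 in PO14 of pH, 7 in PO10 and 1 in PO16 of the control and 0 in T, a pooled level in pH at least 27.7-fold above that in T. The number of calls in pH against T was not stable, with 12 of the 100 called without PO10 (83 of all 27478 transcripts tested) and 18 without PO5 (110 of 28793), and 0 without any 1 of PO1, PO2, PO8 and PO3. With the fit limited to the treatments compared, 13 of the 100 were called in T against the control (157 of all 24522 tested), 5 in pH against the control (59 of 22413) and 21 in pH against T (453 of 22450).

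The extremes of the fitted changes were transcripts at or near 0 in one of the treatments. Between pH and T the largest was that of DN70667_c0_g2_i2, with 49 counts in PO3, 6 in PO5, 6 in PO11 and 24 in PO14 of pH, 53 in PO10 of the control and 0 elsewhere, a pooled level in pH at least 65.5-fold above that in T (edgeR FDR 0.377). The smallest was that of DN56967_c0_g2_i1, with 1 count in PO1, 15 in PO2 and 5 in PO8 of T, 5 in PO10 and 2 in PO16 of the control, and 0 in pH (log2 fold change −5.14, SE 1.63, FDR 0.298). In T against the control the lowest was DN75299_c0_g1_i7, with 83 counts in PO10 and 0 in the other control libraries and in T (log2 fold change −6.46, SE 2.45, FDR 0.580), and the highest was DN76601_c0_g1_i5 (2.41, SE 1.25, FDR 0.859). In pH against the control the lowest was DN74772_c1_g1_i1 (−5.57, SE 1.79, FDR 0.843). The highest was DN68691_c0_g1_i1, the transcript absent from the control, with 3 counts in PO3, 13 in PO5 and 1 in PO11 of pH and 1 each in PO2 and PO8 of T (5.87, SE 1.37, FDR 0.843). Its pooled level in pH was at least 11.2-fold higher than in the control. None of these 6 transcripts was called in the contrast named in the fit of all 4 treatments with the filter of 5 counts. With no filter on low counts, edgeR called DN70667_c0_g2_i2 in pH against T (FDR 5.47e-11), DN75299_c0_g1_i7 in T against the control (FDR 0.000921) and DN68691_c0_g1_i1 in pH against the control (FDR 0.0445), and each was also called with the fit limited to the treatments compared. DN70667_c0_g2_i2 was called without robust estimation (edgeR FDR 0.00460) and without PO5 (FDR 0.0178) as well.

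The contrasts with T + pH were fixed by the choice of the 100, and nothing is read from their counts. In T + pH against the control 31 of the 100 were called, all lower (0.509% of all transcripts tested), against T 3 were called (0.102%) and against pH 21 (0.492%). None of the 100 was found in the study's own list of differentially expressed transcripts, so these calls differ from that list. The reason was not tested. Besides DN68368_c0_g1_i2, the transcripts most concentrated in 1 library were 2 others of PO10. DN76838_c0_g1_i1 had 39 of its 45 counts (86.7%) in PO10, with 1 in PO16, 1 each in PO2 and PO8 of T, and 2 in PO3 and 1 in PO14 of pH. DN69929_c0_g1_i1 had 60 of 71 counts (84.5%) in PO10, with 1 in PO8 of T and 8 in PO3, 1 in PO5 and 1 in PO11 of pH.

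The other isoforms of the same Trinity genes, which the rule did not use, show whether any form of a gene was found in T + pH. Of the 74 genes, 45 had a single isoform in the table. The other 29 had 109 further isoforms, of which 97 had a count in any library and 65 had a count in T + pH. Another isoform was thus present in T + pH for 19 genes, which held 30 of the 100 transcripts, while 55 genes with 70 transcripts had no T + pH count in any isoform. At the level of the assembly component, 34 of 71 had no T + pH count.

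The largest counts of other isoforms in T + pH were those of DN75819_c1_g1, DN72116_c0_g3 and DN76035_c1_g1, with 859, 199 and 125. DN75819_c1_g1 gave DN75819_c1_g1_i19 and DN75819_c1_g1_i2, which had the same 9 counts (1 in PO4, 1 in PO16, 4 in PO2, 1 in PO8, 1 in PO3 and 1 in PO5), while its isoform DN75819_c1_g1_i26 alone had 31 counts in PO6, 49 in PO7, 22 in PO12, 175 in PO15 and 42 in PO19. DN72116_c0_g3_i5, with 20 counts in PO10, 1 in PO16, 2 in PO2, 8 in PO3, 1 in PO11 and 6 in PO14, stood beside DN72116_c0_g3_i2 with 86 counts in PO6, 43 in PO7, 7 in PO12, 63 in PO15 and 0 in PO19. DN76035_c1_g1_i9, with 10 counts in 6 libraries, stood beside 4 isoforms of which DN76035_c1_g1_i8 had 77 counts in T + pH. In these 3 genes the absent forms had few of the counts outside T + pH, 18 against 1975 in the other isoforms of DN75819_c1_g1, 38 against 1512 in DN72116_c0_g3 and 10 against 167 in DN76035_c1_g1. In DN68368_c0_g1 both forms were scarce in T + pH, since the other isoform DN68368_c0_g1_i1 had 372 counts in PO10, 52 in PO3, 8 in PO14, 4 in PO5, 2 in PO8, 1 in PO11 and 3 in all of T + pH.

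**Figure D4:**
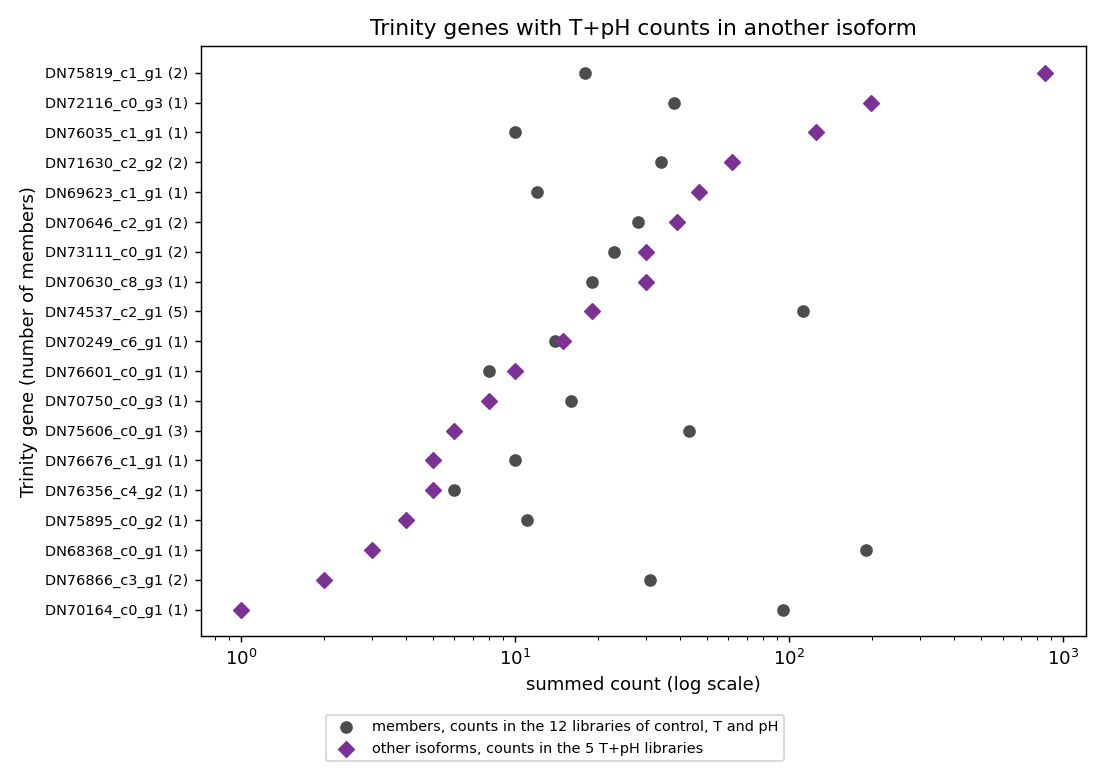
For the 19 Trinity genes with T + pH counts in another isoform, circles give the summed count of the chosen transcripts (members) in the 12 libraries of the control, T and pH, and diamonds the summed count of the other isoforms in the 5 T + pH libraries, on a log axis. The number of members is in brackets; the diamonds run from 1 count (DN70164_c0_g1) to 859 (DN75819_c1_g1).

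Of the 109 other isoforms, 68 could be tested in T + pH against the control, and 4 were called, all lower in T + pH, beside 0.509% of all transcripts. At an unadjusted p under 0.05, 25 of the 68 differed, all lower in T + pH, beside 10.8% of all transcripts tested. The median log2 fold change over the 68 was −1.72, or −1.66 with the bounds in place, against 0.01 over all transcripts tested. These isoforms can share reads with the 100, so this is not independent of the rule. DN72116_c0_g3_i2 was at 154 ± 50.8 CPM in the control and 170 ± 14.5 CPM in T (SD, n = 4), 94.7 ± 30.8 CPM in pH (n = 4) and 27.4 ± 22.6 CPM in T + pH (n = 5), a log2 fold change of −2.27 against the control (SE 0.45, edgeR FDR 0.00776). DN75895_c0_g2_i1 and DN75895_c0_g2_i4 had identical counts, 33 of them in PO10 and 2 in all of T + pH (log2 fold change −3.79, SE 0.98, FDR 0.04998 each), and DN76838_c0_g1_i6 had 15 counts in PO10, 1 in PO8, 1 in PO3 and 0 in T + pH (FDR 0.0496). Without PO10 the edgeR FDR of the DN75895_c0_g2 pair was 0.741, and DN76838_c0_g1_i6, with 2 counts left, fell below the filter. The pair lost its call in 13 alternative settings, leaving out PO10 among them, and DESeq2 did not call it either. DN76838_c0_g1_i6 also lost its call in 9 alternative settings in which it had an FDR, 6 of which left out 1 library of pH or T + pH. DN76838_c0_g1_i6 was not called by DESeq2 or with thinned libraries either. Without PO12 and without PO15 of T + pH, DN72116_c0_g3_i2 had edgeR FDRs of 0.0590 and 0.0617.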

How the data were processed

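CEL-Seq2 libraries of P. onkodes from 4 treatments were analysed. After trimming, reads were mapped by the authors (bowtie2) to a de novo Trinity assembly with ERCC sequences appended, and the CEL-Seq pipeline gave the raw counts per transcript that they deposited. Whether a correction for shared molecular identifiers is included is not given in the sources used here. Libraries PO9 and PO13 and the table of the second species, S. durum, were not analysed here. The P. onkodes table has 0 columns without a sample.

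The members and lists were chosen with earlier results of these data known. The 29276 transcripts whose total over the 17 libraries reached 5 were tested in 1 model of 4 treatments with edgeR 4.0.16 in R 4.3.3 (TMM, robust glmQLFit and glmQLFTest, p adjusted by Benjamini-Hochberg over all of them). Levels are CPM on TMM-scaled totals. On simulated data with 200 transcripts changed 8-fold in T among 27668 tested, edgeR recovered 56% in T against control, with 19 false calls, and DESeq2 1.42.0 recovered 51%, with 10. Alternatives were DESeq2, RLE scaling, other count filters, non-robust and current quasi-likelihood fits, fits limited to the treatments compared, thinning to 532955 counts, leaving out each library, and other forms of the ranking. Leaving PO10 out of the summed levels and presence counts, and PO19 out of the marker levels, was added after seeing the data. Library pairs within a treatment differed beyond counting noise (lowest chi-square per degree of freedom 4.44), so none was a repeat count of the same library. The comparison covers counting noise only, so it cannot tell whether separate libraries came from the same fragment.

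Transcripts named were the first 12 of the ranking, the 2 at its end and the next left out, those called among control, T and pH, the largest and smallest fitted change in each of those contrasts, the 3 with the most T + pH counts in other isoforms, and the 3 most and 3 least concentrated in 1 library. Others named (DN73163_c0_g1_i2, DN74537_c2_g1_i19, DN76035_c1_g1_i9 and the isoforms) were chosen after their values were seen.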

Additional observations from a re-analysis of the deposited data

Results flagged for a closer look

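Within each treatment, single libraries of the first 12 transcripts, of the number of transcripts found and of the summed CPM were compared with the other 3 libraries by Dixon's gap test. Of 41 groups with any spread, 12 held a library whose gap to its nearest neighbour was above the 95% critical share of the range for 4 samples, where chance flags about 1 in 20, and CPM values that are 0 in most libraries meet this limit readily. No group was flagged for the number found or the summed CPM.

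In the control, DN61233_c0_g1_i1 stood at 74.6 CPM in PO16 (next 10.2) and DN101447_c0_g1_i1 at 10.2 CPM in PO17 (next 1.10). PO10 stood alone above 0 for DN57424_c1_g1_i1 (8.80 CPM), DN72910_c0_g1_i1 (14.7 CPM) and DN72910_c0_g1_i3 (15.04 CPM). In T, PO2 stood alone above 0 for DN75241_c0_g1_i3 (0.33 CPM), DN71370_c1_g1_i10 (1.32 CPM), DN72910_c0_g1_i1 (0.33 CPM) and DN72910_c0_g1_i3 (0.33 CPM), of which all but DN71370_c1_g1_i10 rested on 1 count. DN16481_c0_g1_i1 was at 5.57 CPM in PO18 (next 0.33), which is 1 count. In pH, DN57424_c1_g1_i1 was at 28.4 CPM in PO14 (next 5.45) and DN65258_c0_g1_i2 at 4.23 CPM in PO5, with 0 in the other 3.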

How the results depend on the processing

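Calls among the 100 depended on the processing. In T against control, 15 were called with no filter on low counts (141 of all 44774 transcripts tested) and 13 with only those treatments in the fit (157 of 24522), and 0 under each other setting, leaving out any library included (0 to 0). In pH against control, 5 and 5 were called under the same settings (41 of 44774 and 59 of 22413 over all) and 0 under the others (0 to 0). In pH against T, 0 were called with RLE scaling, with a total of at least 10 counts and with thinned libraries, 8 without robust estimation, 21 with no filter (249 of 44774), 21 with only those treatments (453 of 22450), and 0 to 18 on leaving out 1 library. For the other isoforms in T + pH against control, DESeq2, RLE scaling, the current quasi-likelihood method and thinning each called 1, a filter of 10 counts 2, no filter 12 (566 of 44774 over all), only those treatments 18 (960 of 25855), and leaving out 1 library 0 to 7. The highest mean CPM lay in control for 31 to 47, T for 16 to 33 and pH for 36 to 42 on leaving out 1 library. The causes were not tested. The log2 fold change of DN115192_c0_g1_i1 between pH and T lay between 6.93 and 7.64 on leaving out 1 library, and it lost its call under 10 of 25 settings.

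The choice of the 100 depended on the deep T + pH libraries: the rule applied without PO15 kept 25 of them, without PO6 30 and without PO7 60, and with 1 T + pH count allowed 29; leaving out any other library kept 71 to 94. Ranking by summed CPM alone kept 47. Of 74 Trinity genes, 55 were taken when counts were summed over isoforms. No paired analysis was possible because the libraries of different treatments carry different numbers.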
